A study of Nannochloropsis oceanica with 6 samples.

Results

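A set of 6 genes annotated as enzymes of fatty acid elongation was followed in the oil-forming marine alga Nannochloropsis oceanica, strain IMET1. The elongases were elovl6 (NO29G00510) and elo-3 (NO12G02800). The 3-oxoacyl-CoA reductases were SNOG_13627 (NO02G01560), hsd17b12 (NO05G02880) and KCR1, a name that 2 of the models carry (NO05G03460 and NO10G02040). All 6 were picked by gene ID, with earlier results of these data known. They are among the 10481 annotated gene models, and all 6 passed the filter on low counts. Cells in logarithmic growth had been washed and moved for 72 h either into complete f/2 medium (nitrogen repletion, NR) or into f/2 medium lacking nitrogen (nitrogen deprivation, ND), under continuous light, with 3 cultures per condition and 1 RNA sequencing library per culture. All cultures were of this strain, and the labels name no transgene or drug. The question addressed is how transcript levels differ once nitrogen is withheld.

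Fatty acids made in the plastid are exported and can be lengthened further at the endoplasmic reticulum by a cycle of steps. An elongase condenses the acyl-CoA with malonyl-CoA, a 3-oxoacyl-CoA reductase reduces the product, a dehydratase removes water, and an enoyl-CoA reductase completes the round. Nannochloropsis is known for its eicosapentaenoic acid, an omega-3 fatty acid made by alternating elongation with desaturation. The names of the genes come from the closest described proteins of other species and do not show which acyl chains each algal enzyme uses.

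Library totals ran from 3972986 to 5693513 estimated counts. Tests were run on counts scaled by the trimmed mean of M-values (TMM), which sets the typical gene near no change: the median log2 fold change of all genes was 0.02, and 0.34 when libraries were scaled by their totals alone. FPKM, fragment counts scaled to effective length and library total, follow the totals, so an FPKM ratio lies above the tested fold change of the same gene by about that shift. In bulk RNA, fewer cells with a transcript and less of it per cell cannot be told apart.

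After 72 h without nitrogen, 5 of the 6 genes were lower and 1, SNOG_13627, was higher, at an adjusted p under 0.05 in edgeR's quasi-likelihood test. Over all 9329 genes tested, 35.5% were called lower and 35.7% higher, or 71.2% in either direction, so a call was common. The normalised counts of the 3 ND and 3 NR libraries did not overlap for any of the 6 genes, nor for 73.5% of all genes. Together the 6 genes took 0.0950% to 0.102% of all counts in NR libraries and 0.0331% to 0.0339% in ND libraries. Sizes differed more. The elongases were each at least 4 times lower in ND, as were 4.86% of all genes, while the reductases moved by less than that. The median log2 change of the 6 genes was -1.37.

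**Figure D1:**
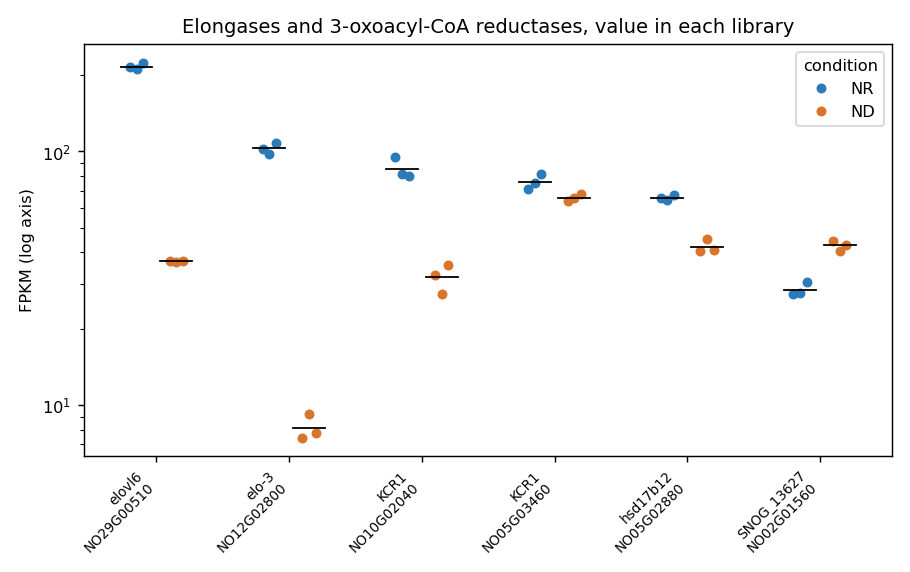
Deposited FPKM (log axis) of the 6 genes in each library, with NR in blue and ND in orange; black lines are means of 3 libraries. The elongases elovl6 and elo-3 have the widest gaps between conditions, and SNOG_13627 is the gene whose ND libraries lie above its NR libraries.

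Elovl6 is named after a vertebrate elongase that lengthens long-chain saturated and monounsaturated acyl-CoAs. Its FPKM were 214, 211 and 224 in NR cultures 1 to 3 and 37.0, 36.7 and 37.0 in ND cultures 1 to 3. All ND values lay far below all NR values, and the 3 starved cultures were nearly equal. The log2 fold change of ND over NR was -2.88 ± 0.05 (SE, n = 3 per group, edgeR adjusted p = 3.83e-20), a level 7.34 times lower. Among all tested genes, 2.33% had a lower log2 fold change.

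Elo-3 is named after a putative elongase of the nematode Caenorhabditis elegans and shares its KEGG ortholog, ELOVL6, with elovl6. Its FPKM were 103, 98.1 and 108 in NR cultures 1 to 3 and 7.45, 9.20 and 7.77 in ND cultures 1 to 3. The groups did not overlap. The gene changed by -3.92 ± 0.08 on the log2 scale (SE, n = 3 per group, edgeR adjusted p = 2.16e-19), a level 15.2 times lower, and 1.11% of all genes had a lower value. In ND the value rested on 68, 94 and 93 estimated counts. The deposited length of elo-3, an average over its 2 transcripts weighted by their abundance, was 2258 ± 1.46 bases in NR and 2348 ± 23.0 bases in ND (SD, n = 3), without overlap. The mix of its transcripts therefore differed between conditions in the authors' estimate, on few counts in ND, and no test of it was made. The corresponding lengths of elovl6 were 2439 ± 0.35 and 2441 ± 2.70 bases.

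Elovl6 and elo-3 also changed relative to each other. Within a library, the FPKM of elovl6 was 2.10 times that of elo-3 in NR and 4.55 times in ND (geometric means of 3), a difference of 1.12 on the log2 scale. The ratio was higher in every ND culture than in any NR culture. The exact two-sided permutation test gave p = 0.1, the smallest that 3 against 3 libraries allow, and adjusted p = 0.1 over the 6 within-library ratios tested.

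**Figure D2:**
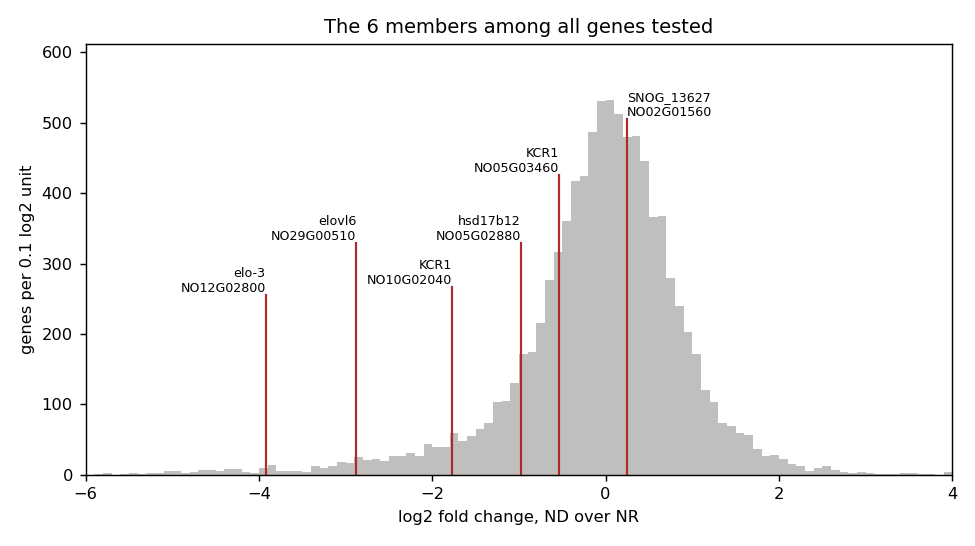
Histogram of log2 fold changes (ND over NR, TMM scaling) of the genes tested, in bins of 0.1, with the 6 genes as red lines; genes beyond the axis limits are not drawn. Elo-3 and elovl6 lie in the lower tail at -3.92 and -2.88, and SNOG_13627 lies at 0.25 within the bulk of genes.

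Among the reductases, KCR1 (NO10G02040) had the largest change by its own estimated counts. It is named after the plant enzyme of the same step and had FPKM of 94.9, 81.5 and 80.1 in NR cultures 1 to 3 and 32.5, 27.4 and 35.8 in ND cultures 1 to 3. Every ND value lay far below every NR value. The log2 fold change was -1.77 ± 0.11 (SE, n = 3 per group, edgeR adjusted p = 1.58e-11). Part of its reads was shared with an adjacent model, as described further on.

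The gene hsd17b12 is named after a vertebrate reductase of the same step. It had FPKM of 65.7, 64.2 and 67.5 in NR cultures 1 to 3 and 40.5, 45.05 and 41.0 in ND cultures 1 to 3. The groups were apart, with a log2 fold change of -0.98 ± 0.08 (SE, n = 3 per group, edgeR adjusted p = 4.52e-10). The other KCR1 (NO05G03460) showed the smallest fall of the 5. Its FPKM were 71.0, 75.4 and 81.2 in NR and 63.6, 65.4 and 68.0 in ND, groups that lay close together without overlap. Its log2 fold change was -0.54 ± 0.07 (SE, n = 3 per group, edgeR adjusted p = 8.91e-07), and -0.22 with library totals alone.

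SNOG_13627 takes its name from a reductase of the fungus Phaeosphaeria nodorum. Its FPKM were 27.4, 27.6 and 30.6 in NR and 44.4, 40.7 and 42.8 in ND, so every starved culture was above every fed one. With TMM scaling the change was 0.25 ± 0.08 on the log2 scale (SE, n = 3 per group, edgeR adjusted p = 0.0118). It was not called by DESeq2 (adjusted p = 0.0700). Its level rests on reads divided with a neighbouring gene of another family.

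The tables show where reads were divided. Estimated counts of elovl6, elo-3, hsd17b12 and KCR1 NO05G03460 were whole in every library, and those of the other members were not. The fractional parts of SNOG_13627 and of arcB (NO02G01550), the model before it in the order of gene IDs, added up to whole counts in all 6 libraries within 0.015. ArcB is annotated as a sensor kinase, and the KEGG ortholog given to SNOG_13627, SLN1, a sensor kinase of yeast, is the one given to arcB. The level of arcB fell from 611 ± 8.57 to 292 ± 12.4 normalised CPM (counts scaled to the TMM library size; SD, n = 3; log2 change -1.06 ± 0.05, edgeR adjusted p = 5.68e-14), while SNOG_13627 went from 52.5 ± 2.79 to 62.5 ± 2.99. The sum of both models changed by -0.90 ± 0.05, but arcB made up most of it, so the sum does not give the direction of SNOG_13627. How many reads were shared is not known, and their part in the rise of SNOG_13627 was not tested.

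KCR1 NO10G02040 shared reads in the same way with the model next to it, NO10G02030, which is also annotated as KCR1 but is longer, at 3814 ± 41.4 bases in NR against 978 bases. The level of NO10G02030 was 144 ± 5.80 normalised CPM in NR and 146 ± 4.63 in ND (log2 change 0.01 ± 0.06, edgeR adjusted p = 0.860). By normalised CPM, which is not scaled to length, NO10G02040 was lower in both conditions, at 69.2 ± 6.85 in NR and 20.3 ± 2.72 in ND. Within a library, the FPKM of NO10G02040 was 2.35 times that of NO10G02030 in NR and 0.661 times in ND, with no overlap of the ratios (exact two-sided permutation p = 0.1, also when adjusted). The sum of both models changed by -0.36 ± 0.06 (edgeR adjusted p = 1.56e-05), less than hsd17b12 (-0.98) or KCR1 NO05G03460 (-0.54). How many reads were shared is not known, so the size of the fall of NO10G02040 rests on how they were divided. The deposited length of NO10G02030 also differed, at 3662 ± 30.5 bases in ND, without overlap with NR.

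Elo-3 NO12G02800 also has a neighbour of the same annotation, NO12G02790, but both had whole counts. In NR the member was the higher, at 1.90 times the FPKM of its neighbour. In ND it was at 0.201 times. The neighbour fell from 131 ± 8.97 to 77.4 ± 1.13 normalised CPM (SD, n = 3; log2 change -0.75 ± 0.07, edgeR adjusted p = 5.62e-09). Their log2 ratio differed by -3.24 between conditions, without overlap (exact two-sided permutation p = 0.1, also when adjusted).

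**Figure D3:**
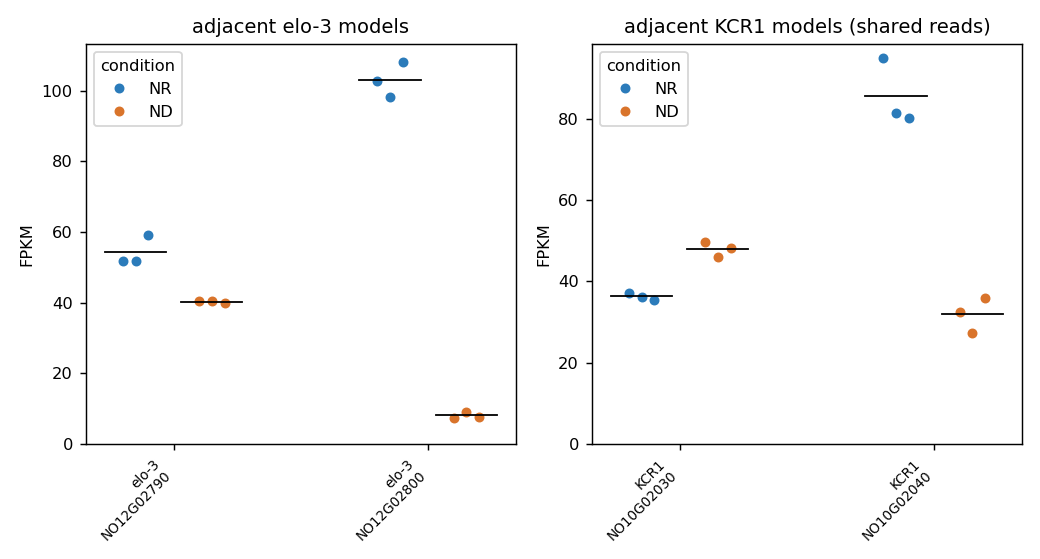
Deposited FPKM in each library (NR blue, ND orange, lines for means of 3) of the adjacent elo-3 models and of the adjacent KCR1 models. In both pairs the model with the higher FPKM in NR has the lower FPKM in ND. The reads of the KCR1 pair were partly shared.

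Levels per length put the genes in a different order in each condition. In NR the order by FPKM was elovl6 (216 ± 6.83, SD, n = 3), elo-3 (103 ± 5.04), KCR1 NO10G02040 (85.5 ± 8.19), KCR1 NO05G03460 (75.8 ± 5.12), hsd17b12 (65.8 ± 1.65) and SNOG_13627 (28.6 ± 1.77). The libraries of the 2 KCR1 genes overlapped, and other neighbours in that order did not. In ND the order was KCR1 NO05G03460 (65.7 ± 2.21), SNOG_13627 (42.6 ± 1.89), hsd17b12 (42.2 ± 2.50), elovl6 (36.9 ± 0.16), KCR1 NO10G02040 (31.9 ± 4.24) and elo-3 (8.14 ± 0.93). There SNOG_13627 and hsd17b12 overlapped, and the elongases had moved from the top of the order to below 3 of the reductases.

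The annotation holds 12 elongase models in all. Of 11 tested, 7 fell, 2 rose and 2 did not pass, beside 35.5% lower and 35.7% higher over all genes. Their median log2 change was -0.74 against 0.02 for all genes. With library totals alone 6 fell and 4 rose. Without elovl6 and elo-3 NO12G02800, 5 of the 9 other tested elongases fell and 2 rose, with a median of -0.49, and with library totals alone 4 fell and 4 rose, with a median of -0.18. Elovl6 and elo-3 NO12G02800, picked with earlier results known, had the lowest log2 fold changes of the family. Next came ELOVL6 NO03G03780 (-1.27 ± 0.05, edgeR adjusted p = 1.93e-14, with shared reads) and Baldspot (NO01G05250, -1.21 ± 0.21, adjusted p = 2.85e-05), which bears the name of the fruit fly elongase.

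Elovl2 (NO02G04610), named after a mouse elongase of polyunsaturated chains, fell by 0.74 ± 0.06. The elo-3 model NO23G00620 changed by -0.49 ± 0.15 and lost its call with library totals alone (adjusted p = 0.295). KCS2 (NO09G03230), a 3-ketoacyl-CoA synthase of the plant type, which is unrelated in structure to the other elongases, rose (0.31 ± 0.05, edgeR adjusted p = 1.84e-05). The elo-3 model NO05G01770 rose by the same amount (0.31 ± 0.07, adjusted p = 0.000766).

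ELOVL6 NO13G01480 (0.12 ± 0.12) and ELOVL5 (NO17G01120, 0.02 ± 0.05, shared reads) did not pass, although both were called higher with library totals alone (0.43 and 0.33). Elovl6 NO16G00440 had too few counts to be tested, at 0.30 to 3.38 FPKM in NR and 2.02 to 2.85 in ND.

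Summed over the 12 models, elongase FPKM were 905 ± 19.5 in NR and 611 ± 12.2 in ND (SD, n = 3). Elovl6 and elo-3 NO12G02800 together held 34.6% to 35.8% of that sum in NR and 7.21% to 7.496% in ND. Elovl6 went from the 1st to the 8th place in the family, elo-3 NO12G02800 from the 4th to the 10th, and KCS2 from the 3rd to the 1st. In NR the libraries of KCS2 (101.6 to 112.2 FPKM), elo-3 NO12G02800 (98.1 to 108.2) and ELOVL6 NO03G03780 (89.7 to 102.0) overlapped. In ND the libraries of elovl6 (36.7 to 37.0 FPKM) lay within the range of the elo-3 model NO05G01770 (36.0 to 38.8). The sum of the 5 reductase models went from 292 ± 6.17 to 230 ± 5.69 FPKM, and the 4 members' share of it from 87.6% ± 0.36 to 79.2% ± 0.62.

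**Figure D4:**
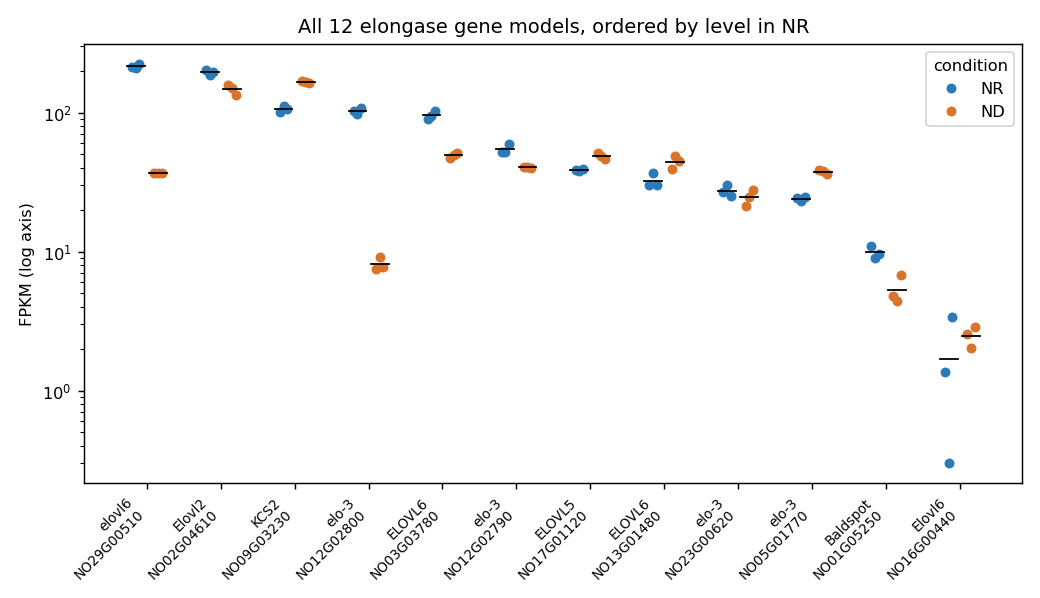
Deposited FPKM (log axis) of all 12 elongase gene models in each library (NR blue, ND orange, lines for means of 3), ordered by mean level in NR. The highest model in NR, elovl6 at 216, is 8th in ND at 36.9, and KCS2 at 166 is the highest there.

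The later steps of the cycle are carried by few models. PAS2A (NO02G00050), the single model annotated as the dehydratase, went from 11.04 ± 0.52 to 13.7 ± 2.16 normalised CPM and did not pass (0.31 ± 0.18, edgeR adjusted p = 0.135), but was called higher with upper-quartile factors, library totals alone and FPKM. Of 3 enoyl-CoA reductase models 2 rose and 1 fell, beside 35.7% called higher and 35.5% lower over all genes. The one with the ortholog of TSC13, the yeast enzyme of this step, is NO26G01520, whose displayed name, fggy, is that of a carbohydrate kinase. It rose (0.51 ± 0.11, edgeR adjusted p = 0.000236) with reads shared with the adjacent Fggy model. The Pecr models, annotated as peroxisomal enoyl-CoA reductases, also shared reads and went apart, NO21G00040 at -0.70 ± 0.07 and NO21G00050 at 0.39 ± 0.17 (adjusted p = 0.0423).

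Malonyl-CoA for elongation comes from acetyl-CoA carboxylase, and both models annotated with that ortholog fell. Over all genes 35.5% were called lower. NO21G02220, displayed as LIG6 because it is described as a DNA ligase, went from 566 ± 41.8 to 239 ± 14.2 normalised CPM (-1.24 ± 0.06, edgeR adjusted p = 1.16e-13). It also carries another ortholog, so its place in malonyl-CoA supply is uncertain. ACAC (NO09G00220) changed by -1.21 ± 0.05. Whether either model supplies elongation was not tested.

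**Figure D5:**
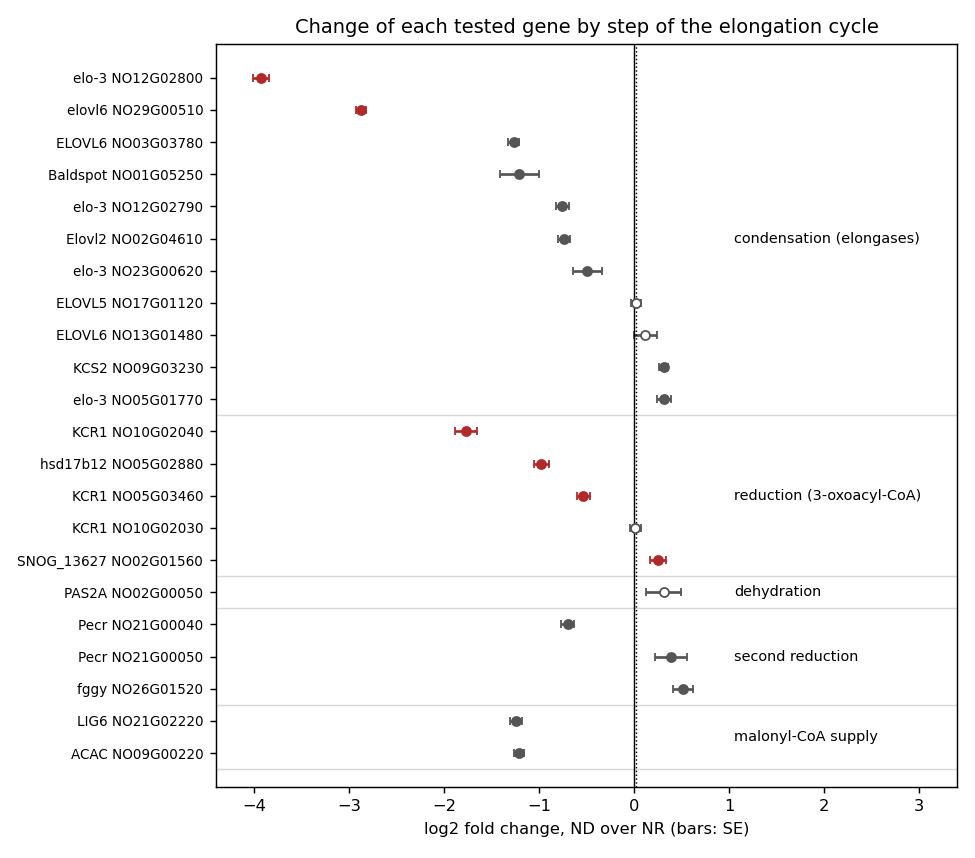
Log2 fold change of ND over NR with its SE for every tested gene of the elongation cycle or malonyl-CoA supply, grouped by step. Red marks the 6 genes, and open circles did not pass an adjusted p of 0.05. The dotted line is the median of all genes. The lowest values are those of elo-3 NO12G02800, elovl6 and KCR1 NO10G02040, and both models with the acetyl-CoA carboxylase ortholog lie below -1. To the right of zero lie 4 elongases, SNOG_13627, KCR1 NO10G02030, PAS2A, Pecr NO21G00050 and fggy.

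Genes that feed or use the elongated chains moved both ways, as did all genes tested (35.5% called lower and 35.7% higher). The list of long-chain acyl-CoA ligases, which activate fatty acids, includes car (NO03G04530), described as a carboxylic acid reductase, and AAE16 models described as chloroplastic. Of its 9 models 3 fell and 4, car among them, rose (median 0.07). Their smallest p-values belonged to HI_0002 (NO25G00730, -5.88 ± 0.09), SLC27A2 (NO05G03180, -1.12 ± 0.05), named after a human very-long-chain acyl-CoA synthetase, and fadD15 (NO24G00960, 0.85 ± 0.06). Of 17 tested desaturase models 8 fell and 6 rose (median -0.20, and 8 and 8 with library totals alone). Those that fell include FPR2 (NO01G04340, -0.67 ± 0.09), which carries a desaturase ortholog but is described as an FK506-binding protein.

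The 3 desaturases with the smallest p-values were lower in ND. They were D4 (NO01G04670, -2.21 ± 0.07), NO13G03330 (-3.24 ± 0.11) and NO06G00120 (-5.47 ± 0.20). NO13G03330 is an unnamed model with the stearoyl-CoA desaturase ortholog. NO06G00120 is a probable delta-5 desaturase whose value rested on only 4, 6 and 7 estimated counts in ND cultures 1 to 3. Among those that rose were NO11G02480 (1.49 ± 0.07) and DES6 (NO28G00700, 2.02 ± 0.10, shared reads), chosen after their values were seen. Of 7 models of sphingolipid synthesis, a pathway whose ceramides can hold very long chains, 3 fell and 4 did not pass (median -0.23). The shares over all genes were 35.5% lower and 35.7% higher. With library totals alone 2 fell and 3 rose. The 3 that fell with TMM scaling were IPCS3 (NO21G00230, -1.67 ± 0.05), an inositolphosphoceramide synthase, CERS4 (NO25G00910, -0.47 ± 0.07, reads shared with an adjacent beta-glucosidase model) and CERS5 (NO09G03700, -0.31 ± 0.06, shared reads), annotated as ceramide synthases.

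KEGG's fatty acid elongation map held 26 tested genes, of which 12 fell and 8 rose (9 and 13 with library totals alone). Its map of unsaturated fatty acid synthesis also held 26, with 16 lower and 6 higher (15 and 10). Their medians were -0.21 and -0.62. The shares over all genes were 35.5% lower and 35.7% higher. SNOG_13627 is on neither map.

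The annotated genes with the profile most like each member were sought among 5418 candidates by the root-mean-square difference of mean-centred log2 CPM over the 6 libraries, a measure that mainly matches the size of the change between conditions. For elovl6 they were a fucoxanthin-chlorophyll binding protein (NO12G02630, 0.032), tagC (NO18G00670, 0.059) and LHCA5 (NO12G02640, 0.062), with changes of -2.85, -2.89 and -2.78. For elo-3 they were the antenna gene FCPE (NO09G00450, 0.10), the cellulose synthase dcsA (NO28G00320, 0.10) and VAD1 (NO04G05240, 0.11). KCR1 NO10G02040 was nearest to Desi1 (NO03G05050, 0.063), the plastid fatty acid synthesis gene fabH (NO28G00420, 0.087) and cypB (NO07G03360, 0.088).

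For hsd17b12 the nearest were NOVA1 (NO01G05280, 0.034), an SQD2 model (NO05G03760, 0.036) and hut1 (NO13G02420, 0.037). For KCR1 NO05G03460 they were nudF (NO29G00020, 0.035), YOL107W (NO02G03820, 0.036) and NOM1 (NO03G01940, 0.042). SNOG_13627 was nearest to pik3c3 (NO11G01400, 0.025), VV1358 (NO18G01470, 0.026) and asnS (NO24G00500, 0.030).

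The authors' deposited table of ND against NR lists 2057 genes, each with an absolute log2 fold change above 1. It holds elovl6 at -2.89, elo-3 NO12G02800 at -3.94 and KCR1 NO10G02040 at -1.79. The remaining members are not listed there.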

How the data were processed

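RNA from 3 ND and 3 NR cultures was sequenced. The tools edgeR, StringTie, featureCounts, Picard, STAR and Trim Galore are named in the submitters' processing notes, without versions or roles. The authors deposited, per the file headers, an estimated count per gene without normalisation, and TPM and FPKM scaled to effective length. Their deposited comparison gives log2 fold changes and p-values. The build is not given in the sources used here, and 0 gene IDs matched the reference table of 160 genes, so no sequence or coordinate is printed.

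Estimated counts were rounded and tested in edgeR 4.0.16 (R 4.3.3; filterByExpr, TMM, quasi-likelihood F test, ND against NR, no replicate block), with Benjamini-Hochberg adjustment over 9329 genes at 0.05. The SE is the absolute log2 fold change over the square root of F. The fit was tested on simulated data. Alternatives used DESeq2 1.42.0 and limma 3.58.1. Permutation tests used SciPy 1.17.1. P-values adjusted over the pathway lists alone and set tests were not computed. Lists were matched by KEGG ortholog and description. The text names the 6 members, every tested gene of the elongation steps, the 3 genes of smallest p in each other list, and the 3 nearest profiles among annotated genes with at least 10 CPM; read-sharing neighbours and KEGG maps' other genes were named after their values were seen. Members and lists were chosen with earlier results of these data known.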

Additional observations from a re-analysis of the deposited data

How the results depend on the processing

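The falls of elovl6, elo-3, hsd17b12 and both KCR1 members kept direction and call under every alternative fitted. SNOG_13627 lost its call with DESeq2 (0.24, adjusted p = 0.0700) and at an adjusted p of 0.01 (0.25, adjusted p = 0.0118), while the sum of its reads and those of arcB, an alternative chosen after seeing the data, changed by -0.90, a value set mainly by arcB and no measure of SNOG_13627 itself. The members called higher became 0 with DESeq2 and at 0.01, as did the reductase models called higher; the unadjusted edgeR p of SNOG_13627 was 0.00743. With each library left out, the members' ranges were -2.89 to -2.86 for elovl6 and -4.01 to -3.88 for elo-3.

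Library totals alone called 2149 genes lower and 5075 higher, limma on log2(FPKM + 1) 2031 and 5090, and limma on log2(FPKM + 0.1) 2019 and 5059. Under these 3 settings, models called higher numbered 4 among elongases, 2 among reductases, 1 for the dehydratase, 3 in sphingolipid synthesis, 13 in the elongation map and 10 in the unsaturated map. In both limma fits, enoyl-CoA reductases called lower became 0 and sphingolipid genes called lower became 1. Upper-quartile factors called 1 dehydratase and 1 sphingolipid gene higher. Enoyl-CoA reductases called higher became 1 with the replicate block, DESeq2, an adjusted p of 0.01 and thinning to equal depth, and ranged from 1 to 2 with a library left out, through Pecr NO21G00050 (lowest change 0.20 without ND replicate 3, adjusted p = 0.314, and also not called without NR replicate 1 or 3). Sphingolipid genes called higher ranged from 0 to 1 with a library left out, being 1 without NR replicate 3 and without ND replicate 1. KCR1 NO10G02030, not called, turned to -0.0018 with RLE factors and -0.0012 with DESeq2, and ranged from -0.014 to 0.044 with a library left out, below zero without NR replicate 3 and without ND replicate 1. ELOVL5, not called, ranged from -0.024 (without ND replicate 1) to 0.052. The order of members by level was the same by TPM and by TMM-scaled counts per length.

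The labels do not say whether replicate numbers pair the cultures. Deviations of same-numbered cultures correlated at 0.02, 0.04 and 0.09 across genes, and not every culture correlated best with its own number. Such weak correlations from 3 libraries per group cannot settle whether the cultures were paired. With the replicate block 6590 genes were called, against 6645. Precision is limited where counts were few, as for PAS2A and Baldspot, and for elo-3 NO12G02800 and the desaturase NO06G00120 in ND.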

Other observations

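The same elongation map of KEGG also holds enzymes that run the cycle with other partners in mitochondria and peroxisomes, most of them known from beta-oxidation. Of its 9 tested genes outside the elongase, 3-oxoacyl-CoA reductase, dehydratase and enoyl-CoA reductase models, 5 rose and 2 fell in ND, with a median log2 change of 0.61. Over all genes 35.7% were called higher and 35.5% lower. With library totals alone 6 of the 9 rose and 3 did not pass, so both falls lost their call there. Hadhb (NO25G01710), the thiolase subunit of the mitochondrial trifunctional enzyme, rose from 50.6 ± 2.93 to 195 ± 6.02 normalised CPM (SD, n = 3; 1.94 ± 0.07, edgeR adjusted p = 1.14e-15), with reads shared with an adjacent model. Its partner subunit Hadha (NO22G00670) rose by 0.98 ± 0.05 and the thiolase ACAA2 (NO01G04640) by 1.23 ± 0.06. Hadh (NO06G03390) and ehhadh (NO06G03560), dehydrogenases of the same route, rose by 0.61 ± 0.07 and 0.77 ± 0.12. In contrast, the mitochondrial enoyl reductase mecr (NO11G01220, shared reads) and the enoyl-CoA hydratase echs1 (NO10G01000) fell, by 0.33 ± 0.05 and 0.36 ± 0.09 on the log2 scale.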
